A study of Mus musculus with 4 samples.

Results

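Serotonin, noradrenaline, acetylcholine and histamine reach the ventral midbrain largely from neurons whose cell bodies lie in other nuclei, and they act there on receptors carried by dopamine, GABA and glutamate neurons. The present account follows 35 genes of these systems: 13 serotonin receptors, 8 adrenergic receptors, 5 muscarinic acetylcholine receptors, 3 histamine receptors, and 6 genes that mark the neurons which make the transmitters. They were chosen by name from a list, each represented by the probe set annotated to that gene alone with the highest mean over the arrays. Of the 35 genes, 28 had such a probe set, each of them a single one, out of 19938 genes named on the array. The other 7 (Adra1a, Adra1d, Adra2a, Adra2b, Adrb1, Adrb3 and Fev) had no probe set named here and were not analysed here.

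The receptors fall into classes by what they do inside the cell. Receptors coupled to Gq raise calcium through phospholipase C, those coupled to Gi lower cyclic AMP and often sit on axon terminals or on the transmitter's own neurons as brakes on release, and those coupled to Gs raise cyclic AMP. Htr3a is the exception, a subunit of an ion channel gated by serotonin. The transmitters themselves depend on a few enzymes and carriers, and the presence of those transcripts marks the cell bodies rather than the axons that reach a region.

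Expression was measured on 4 Affymetrix arrays with total RNA of ventral midbrain, 2 of Wild-type mice (WT) and 2 of Rev-erba knock-out mice (RKO), which lack the circadian repressor REV-ERBα encoded by Nr1d1. All mice were males of 10 to 15 weeks on a C57BL/6J background, entrained for more than 10 days to 12 h of light per day, then kept for 2 days in constant darkness and killed on the day after. The labels call the replicates biological. The hour of collection, the number of mice behind an array and the deleted part of Nr1d1 are not given in the sources used here, and neither is a Cre or cell-type restriction of the knock-out. The comparison asks which of these transcripts differ in the ventral midbrain without REV-ERBα.

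Intensities below are the deposited normalized values on a linear scale, and differences are on the log2 scale, RKO minus WT. Genes were tested when their mean lay at or above the 40th percentile of all probe sets (an intensity of 167), which 21 of the 28 genes did. Across the 13587 tested genes, 1.60% passed a Benjamini-Hochberg adjusted p of 0.05 in limma, 0.640% higher and 0.964% lower in RKO, and the median difference was -0.01. Nr1d1 itself stood at 2897 and 3099 in WT and at 1259 and 1229.7 in RKO. Among the tested genes RKO replicate 1 stood apart, with a median of 539.8 against 558.6 to 558.7 on the other arrays. For the genes below the filter the medians were 80.7 and 85.9 in WT and 89.0 and 85.4 in RKO. There WT replicate 1 was lowest, RKO replicate 1 was highest, and WT replicate 2 lay above RKO replicate 2.

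None of the 21 tested genes passed (0 of 21 in limma, beside 1.60% of all tested genes), for any of the 4 transmitters. Their differences ran from -0.24 to 0.30 with a median of 0.03, and the median size without sign was 0.07, beside 0.05 over all tested genes. The smallest difference that passed among all genes was 0.26. Before adjustment 3 genes had a p under 0.05, the serotonin receptor Htr1d (higher) and the muscarinic receptor Chrm3 and adrenergic receptor Adra1b (both lower), beside 12.8% of all tested genes at that p. Both RKO arrays lay outside the range of the WT arrays for 7 of the 21, beside 41.8% of all tested genes. In 15 of the 21 the difference lay above 0, beside 43.2% of all tested genes. The count was 12 with each array centred on its median (beside 39.1% of all) and 16 after quantile normalization (beside 51.3%). It was 10 without WT replicate 1 (beside 44.6%) and 16 without WT replicate 2 (beside 43.9%). Without RKO replicate 1 it was 13 (beside 52.9%) and without RKO replicate 2 it was 12 (beside 36.6%). In bulk tissue, fewer cells of a type and less RNA per cell cannot be told apart.

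**Figure D1:**
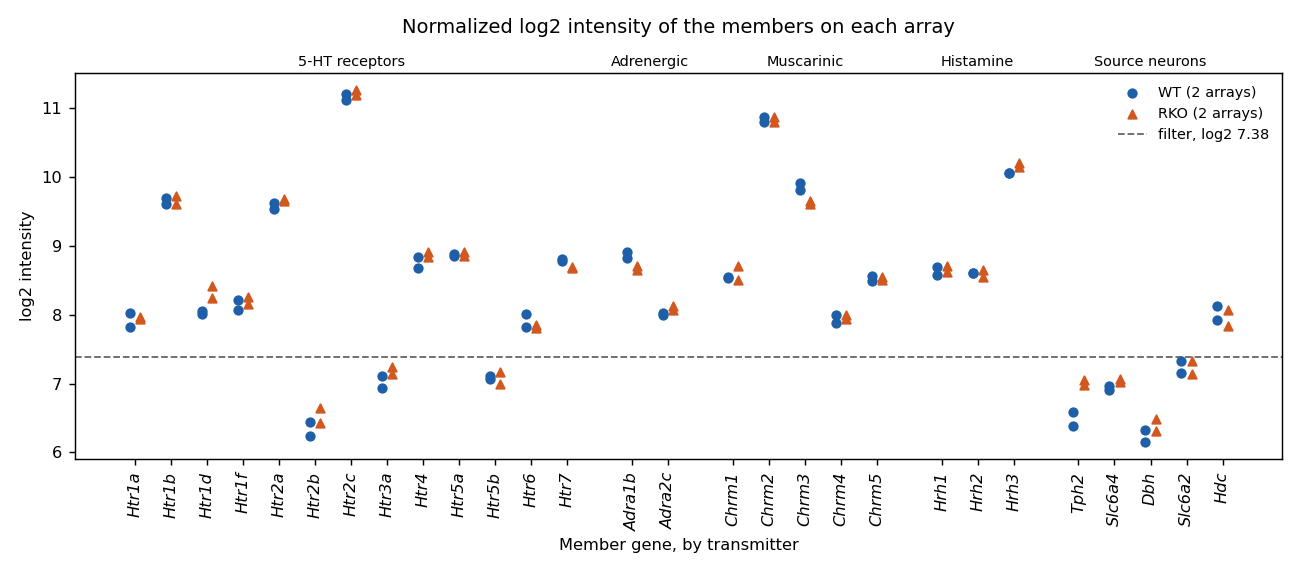
Normalized log2 intensity (vertical axis) of the 28 genes with a probe set, by transmitter, with blue circles for the 2 WT arrays and orange triangles for the 2 RKO arrays. The dashed line is the filter at log2 7.38, with 21 genes above it and 7 below it. Heights of different genes are not comparable, since each probe set has its own response.

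The serotonin neurons that supply the midbrain lie in the raphe nuclei, and their defining transcripts were dim. Tph2, the enzyme that limits serotonin synthesis in the brain, stood at 83.5 and 96.1 in WT and at 133 and 126 in RKO. All 4 values lie below the filter's 167, and both RKO values lie above both WT values. In the fit without the filter its difference was 0.53 (1.45-fold, SE 0.0828, 95% interval 0.33 to 0.73), with a limma adjusted p of 0.105 over 19938 genes, so it did not pass. Tph2 is singled out here after its values were seen.

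That difference is large for a dim gene. Among the 6351 genes below the filter, 3 including Tph2 had a difference at or above 0.53 (0.0472%). Of all these dim genes 71.2% lay above 0, and their median was 0.06, slightly higher in RKO. That shift was not shared by all arrays, since the dim genes' median was 85.9 in WT replicate 2 and 85.4 in RKO replicate 2. Both RKO arrays lay above both WT arrays for 3 of the 7 dim genes followed here (Tph2, Slc6a4 and Htr3a), beside 30.0% of all dim genes. Without the filter 0.0630% of these dim genes passed, and 13.2% had an unadjusted p under 0.05, Tph2 among them (4.46e-04). Over 9 alternative settings, pairings by replicate number aside, the difference of Tph2 ran from 0.36 to 0.63 and its adjusted p from 0.00311 to 0.805. It passed in 4 of the 9, and its highest adjusted p came without RKO replicate 1, where the difference was 0.49.

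The other transcript of serotonin cell bodies did not stand out in the same way. Slc6a4, the serotonin transporter, stood at 125 and 120.0 in WT and at 134 and 130.3 in RKO. The groups do not overlap, but the difference was small (0.11, 95% interval -0.04 to 0.25, limma adjusted p = 0.623 without the filter). Lmx1b, a transcription factor of serotonin and dopamine neurons and the tested marker of the serotonin neuron list, had 452 and 458 in WT and 473 and 447 in RKO (0.01). Summed over Tph2, Slc6a4 and Lmx1b, WT gave 661 and 674 and RKO 739.7 and 703. Of 6 Hox genes of the hindbrain, position markers, 5 lay below the filter, 3 of these 5 above 0 (beside 71.2% of all dim genes), and none of the 6 passed. The tested one, Hoxb3, had 229 and 234 in WT and 268 and 249 in RKO (0.16, limma adjusted p = 0.278). Both its RKO arrays lay above both WT arrays, as in 17.2% of all tested genes. The sum of the 6 came to 751 and 759 in WT against 835 and 770.2 in RKO. Whether tissue nearer the raphe has a part in the Tph2 values was not tested.

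Transcripts of noradrenaline cell bodies, which lie in the locus coeruleus and the medulla, were dim on every array. Dbh, which turns dopamine into noradrenaline, stood at 80.0 and 71.4 in WT and at 89.9 and 79.5 in RKO. Slc6a2, the noradrenaline transporter, stood at 143 and 160.3 in WT and at 161 and 140.3 in RKO. The groups overlap for both genes, and neither passed without the filter (differences of 0.16 and -0.0094, limma adjusted p = 0.606 and 0.986). Hdc, the histamine-making enzyme of the tuberomammillary nucleus in the hypothalamus, was the only tested gene of this class. It had 242 and 278 in WT and 229 and 267 in RKO, with wide overlap (-0.07, 95% interval -0.26 to 0.12).

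Lateral hypothalamus markers, which lie near the histamine neurons, did differ between the groups. Pmch and Hcrt were both lower (2 of 2 passed), with a summed intensity of 998 and 1029.5 in WT and 607 and 530.3 in RKO, while Hdc overlapped. Of the 4 markers of cholinergic cell bodies, Chat, which makes acetylcholine, and the choline carrier Slc5a7 lay below the filter. Slc18a3, the vesicular carrier of acetylcholine, had a mean of 181 in WT and 199 in RKO, with both RKO arrays above both WT arrays (0.14, limma adjusted p = 0.312), and Isl1 had 223 and 236 in WT and 186 and 199 in RKO (-0.26, limma adjusted p = 0.0713). Neither passed, and they lay on opposite sides of 0. Summed over Chat, Slc18a3, Slc5a7 and Isl1, WT gave 637 and 677 and RKO 639 and 648.

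Among serotonin receptors coupled to Gi, Htr1d showed the largest difference of all 21 tested genes. It encodes a receptor found largely on axon terminals, where it restrains release. The WT arrays gave 266 and 258, the RKO arrays 303 and 343. Both RKO arrays lay above both WT arrays, a pattern seen in 17.2% of all tested genes. The difference was 0.30 (1.23-fold, SE 0.0675, 95% interval 0.15 to 0.44), and with a limma adjusted p of 0.0616 it did not pass. Over 10 alternatives, pairings by replicate number aside, the difference stayed between 0.21 and 0.39 and the adjusted p ran from 0.00497 to 0.313, under 0.05 in 3 of the 10. The lowest came with each array centred on its median, where limma gave the tested genes followed here 1 common SE (0.0732). Pairing by number also changed the call of Htr1d, as given with the other settings at the end.

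**Figure D2:**
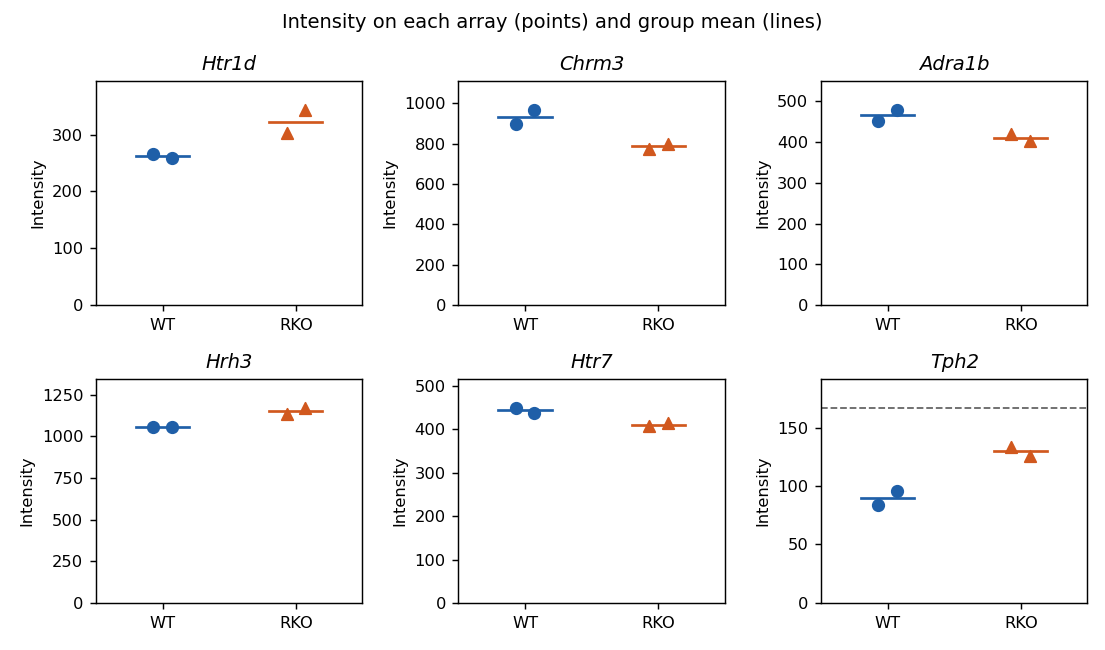
Intensity on each array (vertical axis, starting at 0) of 6 genes, with WT as blue circles, RKO as orange triangles and group means as lines. The RKO arrays lie above the WT arrays for Htr1d, Hrh3 and Tph2 and below them for Chrm3, Adra1b and Htr7. The dashed line in the panel of Tph2 is the filter at 167.

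The remaining receptors of that class overlapped between the genotypes. Htr1a, the autoreceptor of serotonin neurons that is also found on their target cells, had 227 and 261 in WT and 246 and 250.2 in RKO. Htr1b, a terminal receptor closely related to Htr1d, had 781 and 829.5 in WT and 779 and 842 in RKO. Htr1f had 298 and 267 in WT and 306 and 284 in RKO, and Htr5a, which also couples to Gi, had 469 and 461 in WT and 459.6 and 482 in RKO. In these 4 genes the RKO values lie inside or across the WT range, with differences of 0.0082 to 0.06 and 95% intervals between -0.13 and 0.21. Htr5b, in mouse a transcript of the habenula among other sites, lay below the filter with 138 and 134 in WT and 144 and 128 in RKO (0.0027).

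The serotonin receptors coupled to Gq did not pass either. Htr2c, an excitatory receptor found on GABA and dopamine neurons of the midbrain, had 2359 and 2217 in WT and 2320.5 and 2437 in RKO, with overlap (0.06, 95% interval -0.08 to 0.19). Htr2a had 740.2 and 783 in WT and 805 and 822 in RKO. Its groups do not overlap, yet the difference of 0.09 (95% interval -0.03 to 0.22) did not pass. Htr2b lay below the filter, with 75.4 and 87.2 in WT and 100.2 and 85.8 in RKO (0.19 without the filter, 95% interval -0.05 to 0.44).

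The receptors coupled to Gs split in sign. Htr4 had 408 and 459 in WT and 455 and 479 in RKO (0.11, SE 0.0676, limma adjusted p = 0.555), with overlap between the groups. Htr7, a receptor linked to circadian phase shifts in the hypothalamus, had 449 and 438 in WT and 408 and 414 in RKO. Both RKO arrays lay below both WT arrays, as in 24.6% of all tested genes, with a difference of -0.11 (SE 0.0552, limma adjusted p = 0.456). Htr6 had 225 and 256 in WT and 231 and 224 in RKO (-0.08). The ion channel subunit Htr3a lay below the filter, with 122 and 138 in WT and 141 and 152 in RKO (0.17 without the filter, 95% interval -0.02 to 0.36). In all, 0 of the 10 tested serotonin receptors passed, 8 lay above 0 and their median was 0.04. Htr1b of these 8 turned negative (below 0) in 3 alternatives, among them that with each array centred on its median. Htr1a, Htr1f and Htr5a each turned negative in 1 alternative (-0.08, -0.02 and -0.02). Htr6, below 0 with all arrays, came to 0.01 without WT replicate 2.

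Of the adrenergic receptors 2 of 8 had a probe set, and they lay on opposite sides of 0. Adra1b, a Gq-coupled receptor that mediates excitation by noradrenaline, had 453 and 478 in WT and 419 and 402 in RKO. Both RKO arrays were lower, and the difference was -0.18 (SE 0.0585, 95% interval -0.31 to -0.05, unadjusted p = 0.0105, limma adjusted p = 0.199), so it did not pass. Its sign held in the 11 alternatives other than the pairings by replicate number, with differences of -0.22 to -0.14, and limma called it in 0 of them (adjusted p from 0.0939 to 0.451). Adra2c, a Gi-coupled receptor that restrains transmitter release, had 255 and 261 in WT and 280.1 and 267 in RKO. Those groups do not overlap either, but the difference was 0.08 (95% interval -0.04 to 0.21).

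Among the muscarinic receptors Chrm3 had the largest difference. It couples to Gq and carries excitation by acetylcholine. The WT arrays gave 899 and 965 and the RKO arrays 776 and 799, both of them lower. The difference was -0.24 (1.18-fold lower, SE 0.0595, 95% interval -0.37 to -0.11), and with a limma adjusted p of 0.0808 it did not pass. Its difference stayed between -0.29 and -0.19 over 11 alternatives, pairings by replicate number aside, and the adjusted p ran from 0.00515 to 0.444, under 0.05 in 4 of the 11.

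The other muscarinic receptors overlapped between the genotypes. Chrm5, the muscarinic receptor of dopamine neurons, had 375 and 359.8 in WT and 364 and 372 in RKO (0.0016, 95% interval -0.12 to 0.13). Chrm2, a Gi-coupled receptor that also serves as the autoreceptor of cholinergic neurons, had 1777 and 1875 in WT and 1782 and 1871 in RKO (0.00019, 95% interval -0.13 to 0.13). Chrm4, likewise coupled to Gi, had 235 and 254 in WT and 254 and 244 in RKO (0.03). Chrm1, the Gq-coupled receptor prominent in forebrain, had 371 and 373 in WT and 419 and 363 in RKO (0.07), with RKO replicate 1 above and RKO replicate 2 below both WT arrays. The intervals bound these differences and do not show that levels were equal.

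Chrm5 overlapped although dopamine neuron genes were higher. All 5 of Th, Slc6a3, Slc18a2, Ddc and Drd2 passed, with a median of 0.34 and a summed intensity of 10804 and 11066 in WT and 14555 and 14860.2 in RKO. The interval of Chrm5 ends at 0.13, below the lowest of those 5 differences, 0.29. The difference between Chrm5 and these genes was not tested.

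Of the histamine receptors Hrh3 had the largest difference. It couples to Gi, is the autoreceptor of histamine neurons and restrains release from other terminals too. The WT arrays gave 1059.7 and 1059 and the RKO arrays 1133 and 1171, with no overlap. The difference was 0.12 (SE 0.0554, 95% interval -0.0015 to 0.24, limma adjusted p = 0.397). Hrh1, coupled to Gq, had 380.2 and 413 in WT and 417 and 392 in RKO (0.03). Hrh2, coupled to Gs, had 387 and 389.5 in WT and 402 and 375 in RKO (-0.0009). Both overlapped between the genotypes.

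**Figure D3:**
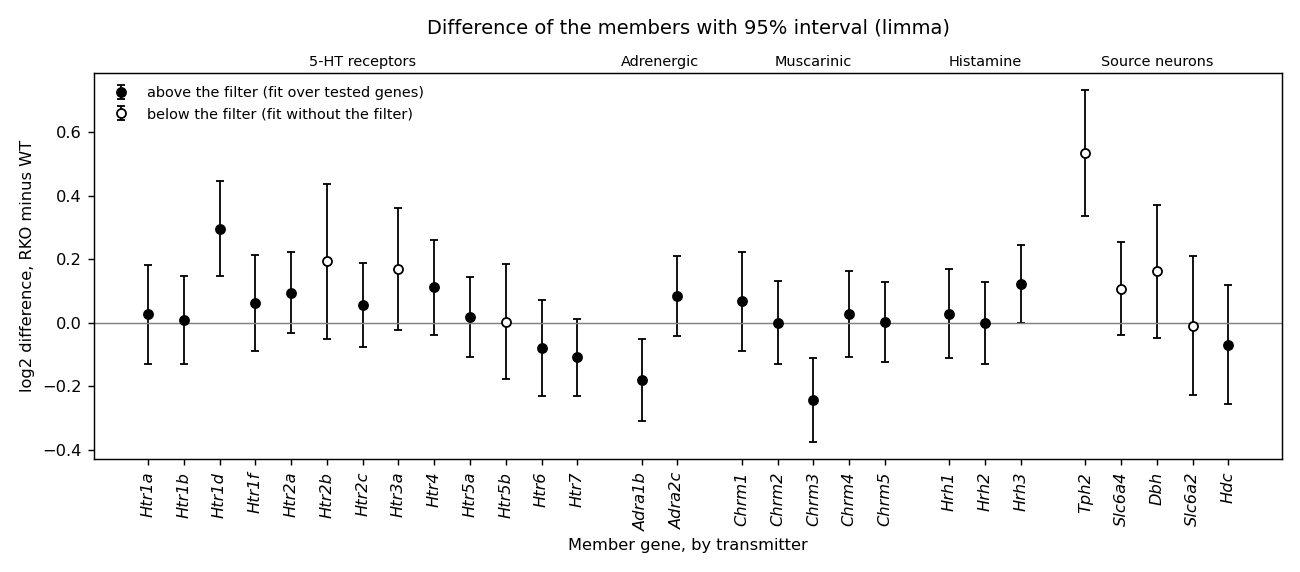
Difference in log2 intensity, RKO minus WT (vertical axis), of each gene by transmitter, with limma's 95% interval as bars. Filled points are the 21 tested genes, and open points are the 7 below the filter, taken from the fit without it. The intervals of Htr1d, Chrm3, Adra1b and Tph2 do not reach 0, and none of the 4 passed after adjustment.

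Grouped by coupling, none of the classes had a member that passed. Of 9 tested Gi receptors 9 lay above 0, several by very little (Chrm2 by 0.00019, Htr1b by 0.0082). The count fell to 5 without WT replicate 1 and to 6 without RKO replicate 2, and to 7 with each array centred on its median, where Chrm2 and Htr1b turned negative. Their median was 0.03 and limma called 0 of the 9 (1 had a p under 0.05 before adjustment). Of 7 tested Gq receptors 5 lay above 0, the median was 0.03, and the 2 below 0, Chrm3 and Adra1b, were those with an unadjusted p under 0.05. Of 4 tested Gs receptors 1 lay above 0 and the median was -0.04. The differences between these classes were not tested.

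**Figure D4:**
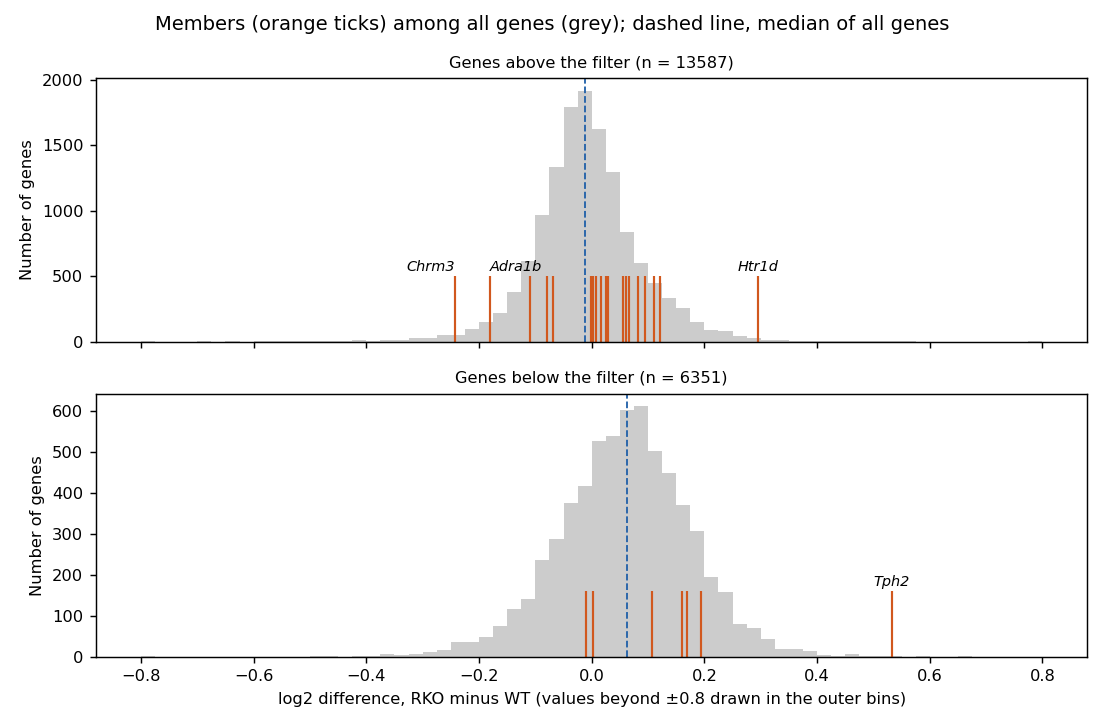
Number of genes (vertical axis) by log2 difference, RKO minus WT, for all genes above the filter (upper panel, 13587) and below it (lower panel, 6351), with the receptors and source neuron genes as orange ticks. The dashed lines are the medians of all genes, -0.01 and 0.06. Most ticks lie within the bulk of all genes, with Tph2 at 0.53 apart in the lower panel.

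Other tissue markers stood beside the lower values of Chrm3 and Adra1b, both of which are also expressed in forebrain and thalamus. Of 8 thalamus markers 2 passed, both lower, with a median of -0.23 and a summed intensity of 16484 and 17038 in WT and 14383 and 14531 in RKO. The 2 above 0 were Rgs16 (0.31, limma adjusted p = 0.0567, both RKO arrays above both WT arrays) and Tcf7l2 (0.0026). Of 5 tested markers of cortex and hippocampus 1 passed, lower, with a median of -0.05. The 2 above 0 there were Emx1 (0.17, limma adjusted p = 0.202) and Lamp5 (0.00079). Neurod6 and Tbr1, of the same list but below the filter, lay above 0 without it (0.28 and 0.16). In both genes the RKO arrays lay above the WT arrays, as in 30.0% of all dim genes. Of 4 tested smooth muscle markers, of interest because vessels carry adrenergic receptors, 1 passed (Acta2, lower) and 4 of 4 lay below 0. Cnn1, below the filter, lay above 0 without it (0.17), with overlap between the groups. Summed over all 5 listed, Cnn1 among them, WT gave 1399 and 1473 and RKO 1154 and 1247. Of 11 tested leptomeningeal markers 7 passed, all lower, and the median was -0.41. Both RKO arrays lay below both WT arrays for 8 of the 11. The 3 above 0 were Col1a1 (0.13, limma adjusted p = 0.351), Col1a2 (0.07) and Col3a1 (0.08). In each of these 3 both RKO arrays lay above both WT arrays. Summed over all 12 listed, among them Lum below the filter, WT gave 5834 and 5945 and RKO 4575 and 4603. No marker was listed at 0. The part of these tissues in the receptor values was not tested.

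The promoters of these genes are of interest because REV-ERBα represses genes through the core AGGTCA, usually preceded by bases rich in A and T, and because its target BMAL1 acts with CLOCK at the E-box CACGTG. RefSeq promoter windows of GRCm38.p6, from 250 bases before to 50 bases after a start, were given for 27 of the 35 genes, 34 windows in all. AGGTCA was found on either strand in 7 of the 34 windows, of 6 genes, and in 16.3% of all 32851 windows of this length. CACGTG was found in 2 of the 34 and in 7.15% of all. The stretches around AGGTCA are shown to let the bases before the core be compared, each read on the strand that spells it, with the core in capitals and 10 bases on either side.
Adra2c: tgcatggggcAGGTCAgttttgagtt
Chrm5: aaacacaaacAGGTCAgttccgctca
Hrh1: ttgccttgtgAGGTCAaggaataccc
Htr2b: aacttgaatcAGGTCAtgaactggtt
Htr2c: ggggaaactgAGGTCAtccatggcac
Htr6, first window: cagggttcttAGGTCAccgagcaacc
Htr6, other window: gggtacatacAGGTCAcgtccccctt
The windows lie at chr5:35278316-35278615 (Adra2c), chr2:112480768-112481067 (Chrm5), chr6:114458272-114458571 (Hrh1), chr1:86111931-86112230 (Htr2b) and chrX:146962263-146962562 (Htr2c). Those of Htr6 lie at chr4:139074740-139075039 and chr4:139075521-139075820. Adra2c, Hrh1 and Htr2c are on the plus strand of the chromosome and Chrm5, Htr2b and Htr6 on the minus strand. The core reads along the gene's own strand in Adra2c, Hrh1, Htr2b and the other window of Htr6, and against it in Chrm5, Htr2c and the first window of Htr6.

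The genes with the core in a window had differences on both sides of 0. The 5 of them that were tested (Htr2c, Htr6, Adra2c, Chrm5 and Hrh1) had differences from -0.08 to 0.08, with a median of 0.03, and Htr2b, below the filter, had 0.19 without it. The 14 tested genes whose windows lacked it ran from -0.24 to 0.30, with a median of 0.01. Htr1d, Chrm3 and Adra1b were among them, and Tph2, below the filter, lacked it too. A match is a description of letters and no evidence of binding, and a window without one says nothing of more distant sites.

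Adra2c was the 1 gene with both motifs in a window (chr5:35278316-35278615, plus strand, GRCm38.p6), which is printed for that reason with the E-box first and the core after it in capitals.
Adra2c: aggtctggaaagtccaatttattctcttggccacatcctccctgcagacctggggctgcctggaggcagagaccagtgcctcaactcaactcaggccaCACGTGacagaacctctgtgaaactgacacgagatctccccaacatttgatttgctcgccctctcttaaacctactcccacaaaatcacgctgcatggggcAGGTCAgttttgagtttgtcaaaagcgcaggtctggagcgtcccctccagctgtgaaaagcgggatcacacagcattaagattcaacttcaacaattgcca
Its difference of 0.08 did not pass (limma adjusted p = 0.618). The E-box lies 152 bases and the core 51 bases before the start, counted to the first base of each.

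Of 13 tested genes that make, carry or break down these transmitters, 3 were higher, 1 was lower and 9 did not pass. The 3 higher ones act in dopamine neurons and in serotonin or noradrenaline neurons alike. Th, which makes the precursor of dopamine and noradrenaline, had 2168 and 2248 in WT and 3620.0 and 3664 in RKO (0.72, SE 0.0558, limma adjusted p = 7.45e-05). Slc18a2, the vesicular carrier of all these amines, had 1508 and 1552 in WT and 2003 and 2104 in RKO (0.42), and Ddc, the decarboxylase of dopamine and serotonin synthesis, had 1419 and 1363 in WT and 1736 and 1777 in RKO (0.34). Maob, a monoamine oxidase of glia, serotonin and histamine neurons, was the lower one, with 1252 and 1180.3 in WT and 961 and 1011 in RKO (-0.30, limma adjusted p = 0.0310). Without RKO replicate 2, Th was the only one of these 4 that passed, without RKO replicate 1 Th and Slc18a2 passed, without WT replicate 1 or after quantile normalization Maob did not, and with no filter Th alone passed. Beside Maob, the astrocyte markers Gfap (-0.51) and Aldh1l1 (-0.31) passed as lower, and 4 of 5 astrocyte markers lay below 0. Gja1 lay above 0, with 2637 and 2643 in WT and 3063 and 3083 in RKO (0.22, limma adjusted p = 0.0848). Both its RKO arrays lay above both WT arrays. The sum of the 5 markers came to 9313 and 9389 in WT against 8876 and 9095 in RKO. The part of astrocytes in the Maob value was not tested.

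Of 6 tested transcription factors of these neurons Gata3 rose and 5 did not pass. Gata3 is needed by serotonin neurons and by a class of midbrain GABA neurons. It had 332 and 339 in WT and 446 and 479 in RKO (0.46, SE 0.0591, limma adjusted p = 0.00233). The call of Gata3 was lost with no filter (limma adjusted p = 0.0804). Its lowest limma adjusted p, 1.25e-07, came with median centring, where the tested genes followed here shared 1 SE. Its relative Gata2 had 313 and 311 in WT and 362 and 403 in RKO (0.29, limma adjusted p = 0.0511), with no overlap between the groups. Other factors went the other way. Isl1 (-0.26, given above) and Nkx2-2 were lower, the latter with 413 and 401 in WT and 353 and 366 in RKO (-0.18, limma adjusted p = 0.182). Before adjustment 2 of the 6 were higher and 2 lower at limma p under 0.05. Limma called 0 of 17 tested G proteins, effectors and regulators (2 before adjustment), whose median was -0.02. The largest differences there were those of Plcb4, a phospholipase C driven by Gq (-0.17, limma adjusted p = 0.226, and 0.00804 to 0.712 over the alternatives, passing with an intensity trend in eBayes), and Grk5, a receptor kinase (-0.14, limma adjusted p = 0.354). Over the 3 lists, 5 of 36 tested genes passed, beside 1.60% of all tested genes. The lists were drawn up with results for some of these genes known, so their count is no independent evidence.

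**Figure D5:**
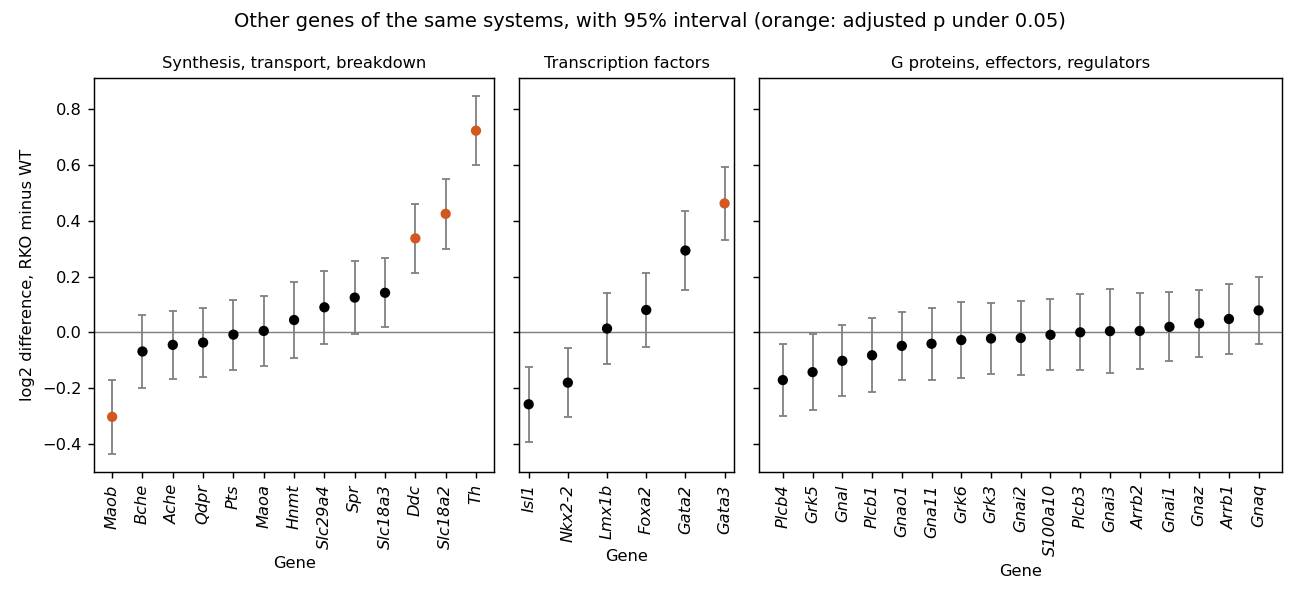
Difference in log2 intensity, RKO minus WT (vertical axis), of the 36 tested genes that share these systems, with limma's 95% interval. Orange points passed an adjusted p of 0.05: Th, Slc18a2, Ddc and Gata3 above 0 and Maob below 0.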

How the data were processed

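Per the labels, biotin-labelled cRNA of each of the 4 samples was hybridised to its own array. The values as deposited are normalized intensities, linear and not log, of 35556 probe sets. The submitters' processing notes list GCOS and RMA but no settings. As RMA is usually run, arrays are given equal distributions, which hides any change shared by most transcripts. The deposited arrays were not exactly equal, with medians of 235.7 to 240.1 and maxima of 19488 to 21035 over all probe sets. Here log2 was taken of the intensities without adding a pseudocount. Names came from the platform annotation (21789 probe sets with 1 gene, 1621 with several, 12146 unnamed here). The probe set with the highest mean was taken per gene, and genes with a mean under the 40th percentile (log2 7.38) were left out of the test. RKO and WT, 2 arrays each, were compared in R 4.3.3 with limma 3.58.1 (lmFit, eBayes), with Benjamini-Hochberg adjustment over all 13587 genes and two-sided p-values. Intervals and standard errors are limma's moderated ones. For the 7 dim genes a second fit over all 19938 genes was used. A single-gene exact permutation test cannot go below p = 0.333 here and was not run. The script was tested on simulated data.

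All 35 genes could be named. Array values and statistics were given in full for those with an unadjusted p under 0.05 and the 3 next in size. In the lists of related genes, those that passed and the 2 largest were named, some without array values, standard error or adjusted p. Marker lists were given as counts, medians or summed intensities, with values for some single genes. Genes, lists and settings were chosen with earlier results of these data known. The listed symbols Adrbk1 and Adrbk2 were updated to Grk2 and Grk3 through RefSeq synonyms. Alternatives covered the filter, scaling, variance prior, pseudocount, probe set choice, replicate pairing and each array left out. The number of arrays limits the precision.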

Additional observations from a re-analysis of the deposited data

How the results depend on the processing

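With all arrays, 0 of the 21 tested genes and 5 of the 36 related genes passed in limma. With median centring limma gave the tested genes followed here 1 common SE (0.0732). Their own spread between replicates thus did not enter the adjusted p-values of that setting. Among the 21, 1 passed with a 60th percentile filter (Chrm3), and 2 (Htr1d and Chrm3) with median centring, with an intensity trend in eBayes or with log2(intensity + 50). None passed with no filter, after quantile normalization, with all probe sets averaged or with any 1 array left out (0 to 0). The median over the genes stayed within the spread between replicates (SD 0.0393) in all 13 alternatives. Of the 28 genes with values 14 changed sign in at least 1 alternative without passing in it, and none of the 14 had passed before. Of the related genes 7 passed with median centring or with the trend, 6 with log2(intensity + 50) or averaged probe sets, 5 with the 60th percentile filter, 4 after quantile normalization, 1 (Th) with no filter, and 2 to 5 passed with 1 array left out, the fewest without RKO replicate 2 and 3 without RKO replicate 1. Over all genes 218 passed, against 31 with no filter, 455 with median centring, 499 with the trend, 73 without RKO replicate 1 and 99 without RKO replicate 2.

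Replicate numbers are shared by the groups, but nothing in the labels pairs the mice. With the replicate number as a block (replicate block) 1 of the 21 genes passed (Htr1d) and 6 related genes did, Gata2 being the added one. The deviations of same-numbered arrays correlated at -0.11 over genes, so a crossed pairing was added after seeing the data, in which 2 of the 21 genes, 7 related genes and 696 genes in all passed. With 1 array left out, the lone array of a group is assumed to vary like the other group.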
